A study of Saccharomyces cerevisiae with 227 samples.

Results

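The transcripts described here encode the proteins of the small subunit of the cytosolic ribosome of the yeast *Saccharomyces cerevisiae*. They were chosen by name, as the ORFs RPS0A to RPS31, and all 56 of the 56 listed ORFs were found among the 5609 ORFs of the value table. Of these genes, 48 form 24 pairs of A and B paralogs and 8 are single copies, among them RPS2, RPS3, RPS12, RPS13, RPS15, RPS20 and RPS31. In 2 pairs, among them RPS6, both rows held the same value on each of the 227 arrays, so that 54 rows were distinct and 22 pairs could be compared. In the structure of the subunit, 22 of the genes encode proteins of the head and 34 encode proteins of the body and platform.

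Two-color arrays of synthetic oligonucleotides were used, with Cy3 on the cDNA of a sample and Cy5 on that of a reference RNA. The arrays followed 7 time courses, in generations of growth, each with its own control. The wild-type strain JM43 (MATα, with marker mutations in LEU2, HIS4, TRP1 and URA3) was grown in sparged batch fermentors on galactose (SSG-TEA) or glucose medium (SSD-TEA) and shifted from air to oxygen-free N2. In galactose medium it was also treated with 1 μM antimycin A, an inhibitor of the respiratory chain, in air for 3 generations and then shifted to N2 with the inhibitor present. The msn2/4 mutant, whose strain background the labels do not give, was shifted to N2 in galactose medium. After 6 generations of N2, wild-type cultures in both media were returned to air (re-aeration). Each group had 3 arrays, except 0.38 generations of anaerobiosis in glucose, which had 2. The control was the sample at 0 generations, or for antimycin A followed by N2 the sample after 3 generations of antimycin A in air, and for re-aeration the sample after 6 generations of N2. The labels call the 0 generation sample of the antimycin A series a control but give its medium with the inhibitor, whereas the methods place it before the addition. They do not say which arrays came from separate cultures, so p-values measure only the spread between these arrays. Values were taken as log2 of sample over reference, and since the labels do not state the scale, the base is an inference. The values of an array are centred near 0, which hides any change shared by all transcripts, and fewer cells making a transcript and less of it per cell cannot be told apart.

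A ribosomal protein joins ribosomal RNA in the nucleolus, where early proteins fold the RNA and later ones complete the head, the platform and the mRNA channel. In growing yeast the ribosomal protein genes are among the most heavily transcribed, and Rap1, Fhl1 and Ifh1 act at their promoters under the control of the TOR and protein kinase A pathways. They are known to be turned down together when growth is interrupted. Most exist as pairs left by a duplication of the genome, and the A and B proteins are near-identical or identical.

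The genes moved on arrays that differed little in centring. Array medians ranged from −0.08 to 0.09, and the median SD within a group was 0.177 over the small-subunit genes and 0.172 over all rows. The correlation across genes between arrays of a group had a median of 0.786 to 0.949 in the 7 series. MSN2 (YMR037C), a transcription factor gene absent in the mutant, was between −5.68 and −3.86 on the 15 mutant arrays and at 0.19 ± 0.17 (SD, n = 3) in the wild-type control. MSN4 (YKL062W) was between −3.32 and −1.30 in the mutant and at −0.40 ± 0.26 (SD, n = 3) in the wild type. In 3 groups 1 array stood apart in the small-subunit genes. At 0.19 generations of the mutant, replicate 1 had a median of −0.23 against −0.94 and −0.85 on the others, and at 2 generations replicate 2 was at −0.65 against 0.04 and 0.05. After 3 generations of antimycin A in air, replicate 2 was at −0.26 against 0.13 and 0.06. RPS23A lacked a value on 76 arrays and RPS19A on 34, and a gene was tested at a time point only where both groups had at least 2 values. Whether the oligonucleotides separate near-identical copies was not tested.

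Anaerobiosis in galactose lowered the small-subunit genes most strongly for a short time. The median change from the control was −0.19 at 0.04 generations, −0.65 at 0.08, −0.80 at 0.13 and −0.68 at 0.19. It then returned to −0.45 at 0.25 and −0.20 at 0.38 generations, and lay between −0.35 and −0.12 from 0.5 to 3 generations. At 0.5, 1, 2 and 3 generations 55, 51, 53 and 54 of the 56 genes lay below the control, beside 48.3% to 50.3% of all genes. There 41, 23, 26 and 5 were lower at an unadjusted p under 0.05, and 1 was higher at 1 generation. The medians of the arrays over the 56 genes were 0.23, 0.47 and 0.64 in the control and −0.40, −0.41 and −0.26 at 0.13 generations. These 2 groups of arrays did not overlap. At 0.13 generations 55 of 56 genes were below the control, in a range from −1.47 to 0.02, while the median of all genes was at 0.04. In all, 35 of 56 genes fell past the threshold at 1 or more time points and none rose (limma, Holm-adjusted p of at most 0.01). Of all genes tested, 40.5% passed in either direction. At an unadjusted p under 0.05, 54 were lower and 1 was higher at some time point. At 0.08 generations 22 genes fell, beside 11.9% of all genes tested. At 0.13 generations the count was 35, beside 12.9%, and at 0.19 generations 26, beside 8.63%. At 0.25 generations RPS2, RPS11B and RPS20 were still called, beside 4.46% of all genes. The count of 35 was 26, 8 and 16 when the arrays numbered 1, 2 or 3 were left out.

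**Figure D1:**
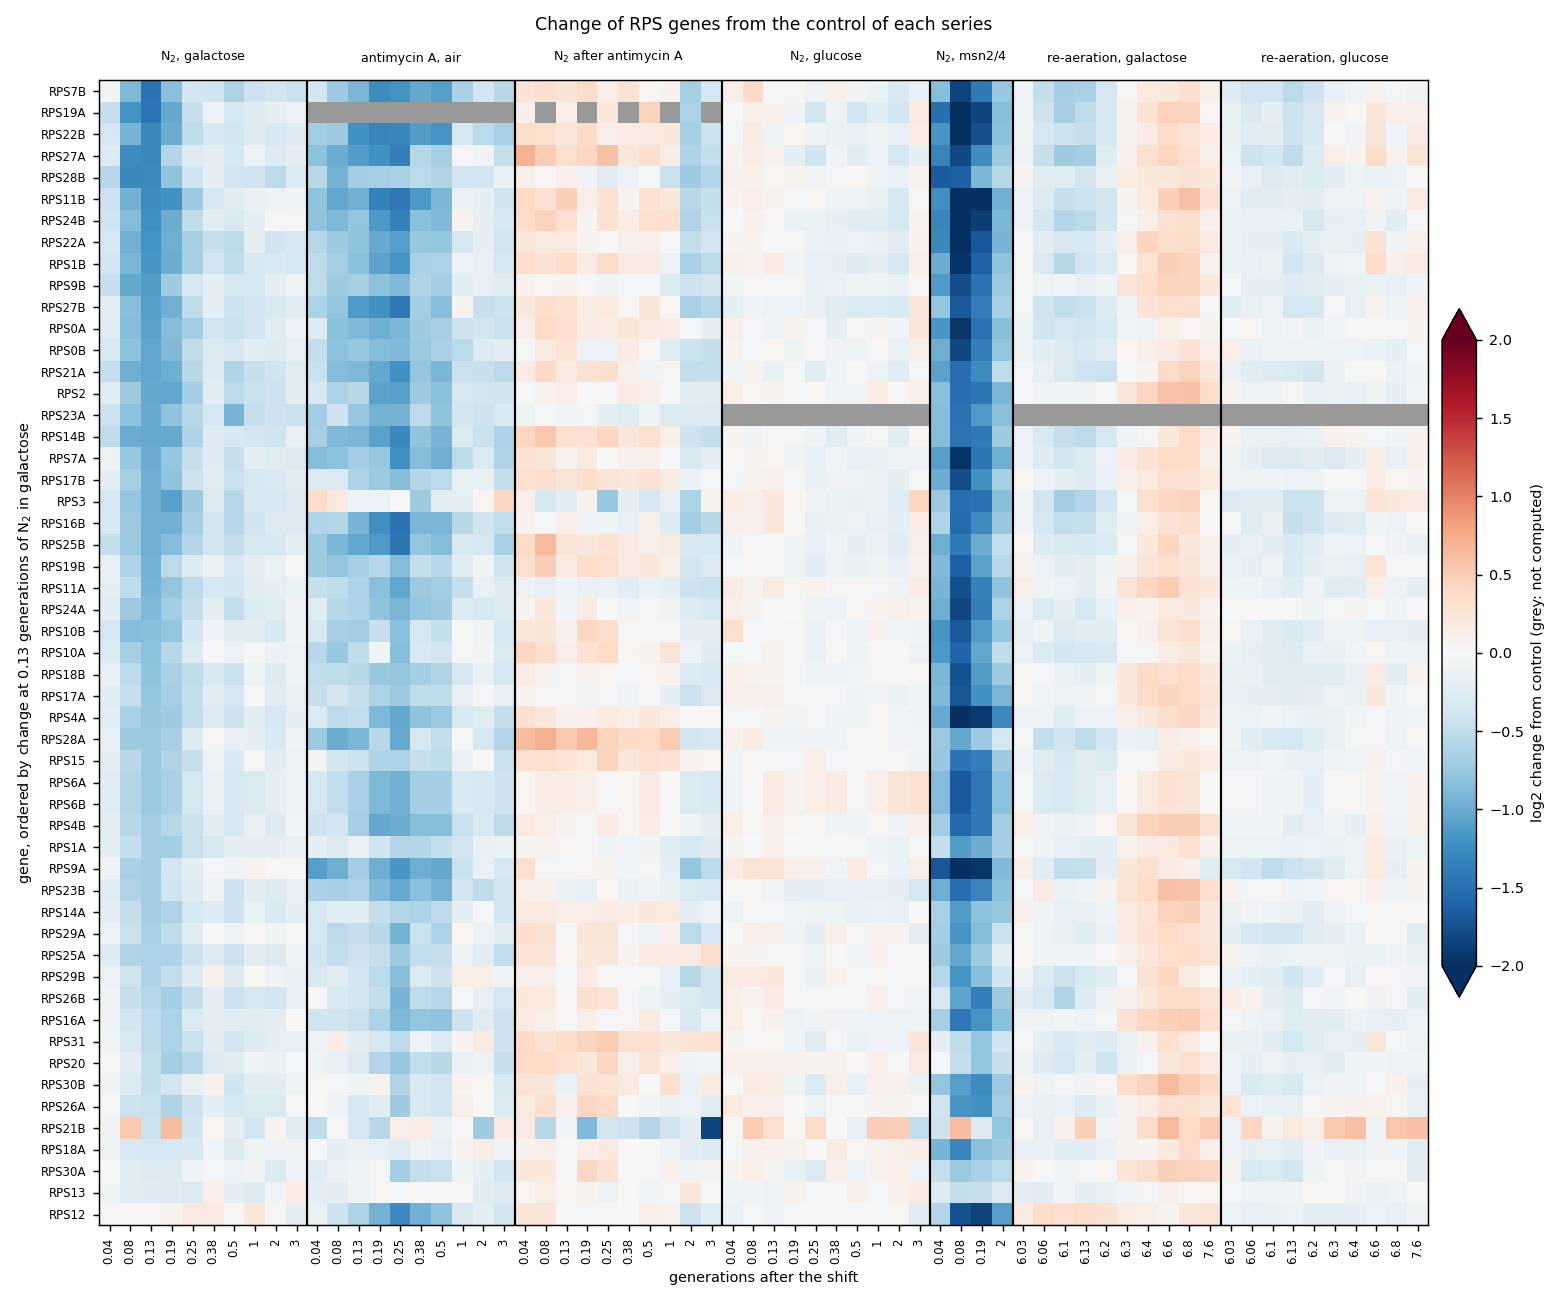
Change from the control (log2) of small-subunit genes, in rows, at each time point of the 7 series, in columns (generations), with the rows ordered by the change at 0.13 generations of anaerobiosis in galactose and grey where no change was computed. Blue bands cover most rows from 0.08 to 0.25 generations of anaerobiosis in galactose and from 0.04 to 0.5 generations of antimycin A in air. The msn2/4 mutant shows them at each of its time points, and the panels of glucose and of N2 after antimycin A stay paler.

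The genes that fell most at 0.13 generations were RPS7B, RPS19A, RPS22B and RPS27A. RPS7B (YNL096C), which encodes a protein of the body, was at 0.43, 0.47 and 0.90 on the control arrays and at −0.80, −0.78 and −1.02 at 0.13 generations. It changed by −1.47 (SE 0.14, adjusted p = 4.99e-07), a level 2.78-fold lower, and the arrays did not overlap. RPS19A (YOL121C) encodes a head protein required for the maturation of the small-subunit RNA. Its values were 0.51, 0.70 and 1.03 in the control and −0.70, −0.82 and −0.56 at 0.13 generations, a change of −1.44 (SE 0.13, adjusted p = 1.52e-07). RPS22B (YLR367W), a gene for a protein of the body, went from 0.37, 0.82 and 0.94 to −0.87, −0.48 and −0.40, a change of −1.30 (SE 0.14, adjusted p = 7.19e-06). RPS27A (YKL156W), also a gene of the body and platform, went from 0.43, 0.64 and 0.82 to −0.66, −0.73 and −0.56, a change of −1.28 (SE 0.12, adjusted p = 2.84e-07). In none of these genes did a control array reach the range of the anaerobic arrays.

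The courses after 0.13 generations are given for RPS27A and RPS11B and were not compared by a test. RPS27A was back at −0.01, −0.01 and 0.16 at 0.19 generations, a change of −0.58 that no longer passed (adjusted p = 0.243). RPS11B (YBR048W), a gene of the body chosen after its values were seen, had control values of 0.61, 0.66 and 0.79 and was at −0.60, −0.52 and −0.57 at 0.13 generations. Its change was −1.25 there (SE 0.08, adjusted p = 4.41e-11) and −1.22 at 0.19 generations (adjusted p = 9.26e-11). Of the 56 genes, 42 had their lowest mean at 0.13 generations and 10 at 0.19 generations, among the latter RPS2, RPS3, RPS20 and RPS31. RPS10B and RPS28B were lowest at 0.08 generations, RPS13 at 0.25 and RPS12 at 3 generations.

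The single-copy genes spanned nearly this whole range. RPS2 (YGL123W) and RPS3 (YNL178W) encode proteins at the entry of the mRNA channel. RPS2 was at 0.28, 0.64 and 0.73 in the control and at −0.60, −0.31 and −0.50 at 0.13 generations, a fall of 1.02 on the log2 scale (SE 0.10, adjusted p = 1.08e-06). RPS3 went from 0.52, 0.76 and 1.06 to −0.25, −0.33 and 0.00, a change of −0.97 (SE 0.14, adjusted p = 0.00149). The arrays of either gene did not overlap. RPS15 (YOL040C), an essential head protein gene, was at 0.31, 0.41 and 0.43 and then at −0.41, −0.38 and −0.30, a change of −0.74 (SE 0.09, adjusted p = 6.12e-05). RPS20 (YHL015W), another gene of the head, fell from 0.37, 0.27 and 0.38 to −0.21, −0.12 and −0.08, by 0.48 on the log2 scale (adjusted p = 0.00697), and further to −0.40, −0.27 and −0.36 at 0.19 generations (change −0.69, adjusted p = 1.16e-05).

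RPS31 did not pass although its arrays were separate. RPS31 (YLR167W) is translated as a fusion with ubiquitin, and its values were 0.20, 0.53 and 0.68 in the control and −0.01, −0.14 and −0.02 at 0.13 generations (change −0.52, SE 0.15, adjusted p = 1). RPS13 (YDR064W) and RPS12 (YOR369C) were at the other end. RPS13, an early-assembling protein of the body, was at −0.01, 0.10 and 0.27 in the control and at −0.07, −0.09 and −0.26 at 0.13 generations (change −0.26, SE 0.10, adjusted p = 1). RPS12, a protein of the beak of the head, was at 0.14, 0.20 and 0.36 and then at 0.22, 0.29 and 0.25, a difference of 0.02 (SE 0.10, adjusted p = 1), with overlapping arrays. The other members with the smallest changes were RPS18A (YDR450W) at −0.34 and RPS30A at −0.29.

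No subgroup of the subunit was spared at 0.13 generations. The median change was −0.80 over the head genes, 13 of 22 of which fell, and −0.90 over the genes of the body and platform, 22 of 34 of which fell. It was −0.76 over the 24 A copies (14 called), −0.96 over the 24 B copies (17 called) and −0.63 over the 8 single-copy genes (4 called). These differences between subgroups were not tested. Between 4 and 6 generations of anaerobiosis the medians of the 56 genes were −0.14, −0.14 and −0.20. There limma called 0 of them, beside 11.6%, 10.9% and 10.4% of all genes in either direction, and 12, 10 and 16 were lower at an unadjusted p under 0.05.

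**Figure D2:**
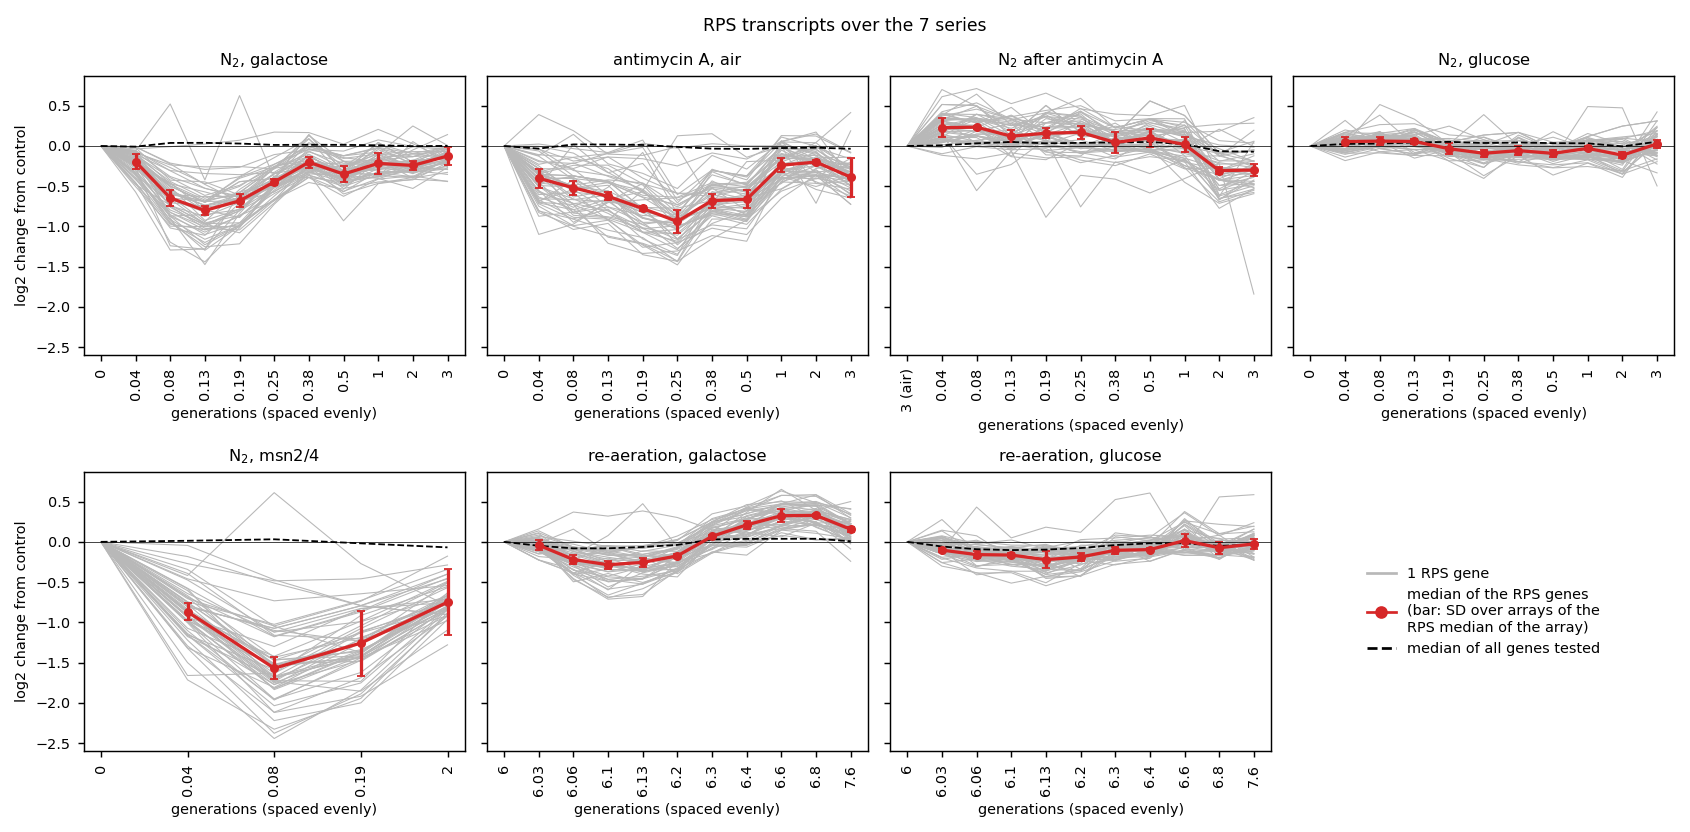
Change from the control (log2, vertical axis) along the time points of the 7 series (generations, evenly spaced on the horizontal axis), with a grey line for each small-subunit gene, the median of the genes in red with the SD over arrays of the array median, and the median of all genes as a dashed line. The red line is lowest at 0.13 generations of anaerobiosis in galactose (−0.80), at 0.25 generations of antimycin A in air (−0.94) and at 0.08 generations of the msn2/4 mutant (−1.57).

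Antimycin A lowered the same class of genes in the presence of air, with a later minimum. The median of the 55 genes tested (RPS19A lacked control values) was −0.40, −0.52, −0.63, −0.78 and −0.94 from 0.04 to 0.25 generations, −0.68 and −0.66 at 0.38 and 0.5 generations, and between −0.39 and −0.20 afterwards. The array medians over the genes were 0.37, 0.37 and 0.34 in the control and −0.70, −0.49 and −0.49 at 0.25 generations, with no overlap. In all, 24 of 55 genes fell past the threshold and none rose, beside 23.6% of all genes called in either direction, and 53 were lower at an unadjusted p under 0.05. The counts were 1 at 0.04 generations (beside 2.58% of all genes called lower), 4 at 0.08 (7.51%), 6 at 0.13 (7.15%), 17 at 0.19 (8.76%), 24 at 0.25 (8.08%), 9 at 0.38 (3.21%) and 9 at 0.5 generations (1.43%). Of the 55 genes, 44 had their lowest mean at 0.25 generations. Leaving out the arrays numbered 1 to 5 in turn changed the count of 24 to 10, 15, 8, 19 and 20, and leaving out only replicate 2 at 3 generations, which stood apart, changed it to 30. At 0.04 generations RPS9A (YPL081W), a protein of the body that binds ribosomal RNA and bears on decoding fidelity, was called at −1.10 (adjusted p = 0.00403). RPS0A, RPS0B, RPS14B and RPS22A were called at 0.08 generations. The shares of small-subunit genes called at these 2 times, 1.82% and 7.27%, lay below those of all genes. These early calls thus do not set them apart.

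The 24 genes called in antimycin A and the 35 called in anaerobiosis shared 19, which is 79.2% of the former and 54.3% of the latter. Over all genes these shares were 79.3% and 46.1%. Anaerobiosis called 62.5% of the small-subunit genes and 40.5% of all genes, so these shares cannot be compared directly. RPS16B (YDL083C), a head protein gene chosen after its values were seen, had the lowest change at 0.25 generations. It was at 0.86, 0.64 and 0.71 in the control and at −0.75, −0.79 and −0.68 with the inhibitor, a change of −1.48 (SE 0.14, adjusted p = 2.1e-07) and a level 2.78-fold lower. No control array came near the treated ones. RPS12, which was near its control in N2, went from 0.37, 0.45 and 0.19 to −0.78, −0.89 and −1.14, a change of −1.27 (SE 0.16, adjusted p = 6.11e-05). RPS2 went from 0.41, 0.47 and 0.20 to −0.58, −0.94 and −0.65, a change of −1.09 (adjusted p = 1.76e-05).

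At 0.13 generations of antimycin A the lowest changes were those of RPS22B (−1.21, adjusted p = 0.000375), RPS27B (−1.13, adjusted p = 0.013), RPS27A (−1.12, adjusted p = 1) and RPS25B (−1.05). The highest were RPS3 (−0.10), RPS30A and RPS13 (each −0.09) and RPS30B (−0.08). Of the other single-copy genes, RPS12 was at −0.63, RPS2 at −0.56, RPS15 at −0.43, RPS20 at −0.28 and RPS31 at −0.22 at this time. RPS13 did not move away from its control at the minimum of the others, with control values of 0.54, 0.35 and 0.18 and values of 0.43, 0.27 and 0.30 at 0.25 generations (change −0.03). RPS3 had widely spread arrays, at −0.55, −1.80 and −1.01 in the control and at −1.22, −0.95 and −1.22 at 0.25 generations, so that its change of −0.01 has an SE of 0.42. Its control spread is far above the median SD of the genes and leaves its course in this series undetermined. By position, 3 of 21 head genes and 21 of 34 genes of the body and platform were called at 0.25 generations. Of all genes 8.08% were called lower there. The medians were −0.85 for the head and −1.01 for the body and platform, and the difference between positions was not tested.

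The difference between both treatments was tested as an interaction term at 0.08 and 0.13 generations only. Later times were not tested, among them 0.25 generations, where the median was −0.94 with antimycin A and −0.45 in N2. The later minimum with antimycin A was thus not tested. Of 55 genes 0 passed at 0.08 and at 0.13 generations, where 2.06% and 3.21% of all genes passed in either direction. At an unadjusted p under 0.05, 1 gene had a less negative change with antimycin A and 1 a more negative one at 0.08 generations, and 8 and 1 did at 0.13 generations. The gene with a more negative change at 0.13 generations was RPS12, with a difference of −0.65 (adjusted p = 1).

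When the inhibitor had been present for 3 generations, the shift to N2 was not followed by an early fall of these genes. The median change was 0.23 at 0.04 and 0.08 generations, 0.12 at 0.13 and 0.02 at 1 generation, and then −0.31 and −0.30 at 2 and 3 generations. At 2 and 3 generations the medians of all genes were −0.06 and −0.07, and 51 of 56 and 49 of 55 small-subunit genes lay below the control. Limma called 0 genes at any time point, beside 17.8% of all genes in either direction, and at an unadjusted p under 0.05 34 were lower and 23 higher at some time point, with 29 of the lower ones at 2 generations. The control holds the array of replicate 2 that stood apart, and leaving out replicate numbers in turn moved the median at 0.13 generations between 0.029 and 0.21. Set against the samples before antimycin A, 14 genes were called at some time point in place of 0. The share of all genes called against that control was not computed. At 0.13 generations the lowest changes were those of RPS3 (−0.23), RPS23B and RPS30B (each −0.13) and RPS11A (−0.08), and among the highest were those of RPS28A (0.53), RPS11B (0.48) and RPS1B (0.37). Of the other single-copy genes, RPS12 was at 0.02 and RPS31 at 0.36, with RPS13 at 0.04, RPS2 at 0.13, RPS15 at 0.28 and RPS20 at 0.31.

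RPS7B, the gene that fell most in N2 alone, was at 0.23, −0.72 and 0.11 in the control of this series and at 0.10, 0.15 and 0.13 at 0.13 generations. Only replicate 2 of the control, which stood apart in the genes as a whole, was low. RPS2 was at −0.05, 0.02 and −0.08 and then at 0.22, −0.01 and 0.06, with overlapping arrays. Set against anaerobiosis without the inhibitor, the change was less negative past the threshold in 18 of 55 genes at 0.08 generations (beside 9.89% of all genes) and in 24 at 0.13 generations (beside 8.93%), 27 distinct genes in all. The median differences were 0.86 and 0.89. For RPS2 the difference at 0.13 generations was 1.15 (adjusted p = 2.76e-07) and for RPS7B 1.73 (adjusted p = 0.000379). Without the control array of replicate 2 the number of distinct genes was 14, and without all arrays numbered 1, 2, 3 or 4 it was 18, 5, 7 and 22. A fit with a replicate block gave 11 in place of 27.

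In glucose medium the shift to N2 left the genes near their control level. The median change lay between −0.11 and 0.06 from 0.04 to 3 generations and at 0.09, 0.13 and 0.08 from 4 to 6 generations. Limma called 0 of 55 genes in the first 3 generations, beside 21.6% of all genes, with 18 lower and 12 higher at an unadjusted p under 0.05. It also called 0 at 4, 5 and 6 generations, beside 18.4%, 18% and 16.5% of all genes, with 14, 18 and 15 higher and 1, 1 and 0 lower at an unadjusted p under 0.05. RPS7B was at 0.34, 0.09 and 0.13 in the control and at 0.06, 0.29 and 0.25 at 0.13 generations, and RPS2 at 0.19, −0.00 and 0.09 and then at 0.19, 0.13 and 0.10. The arrays of both genes overlapped. The lowest changes at this time were those of RPS21A (−0.15), RPS13 and RPS27B (each −0.12) and RPS22B (−0.10), and the highest those of RPS21B (0.33), RPS9A (0.28), RPS29B and RPS3 (each 0.22). RPS12 was at −0.10, RPS15 at −0.01, RPS31 at 0.03, RPS2 at 0.05 and RPS20 at 0.09.

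The difference between both sugars passed the threshold in 19 of 55 genes at 0.08 generations (beside 10.6% of all genes) and in 32 at 0.13 generations (beside 12%), 33 distinct genes, and the change was less negative in glucose in each of them. The median differences were 0.66 and 0.89. At 0.13 generations the difference was 1.53 for RPS19A, 1.49 for RPS7B, 1.10 for RPS11A and 0.97 for RPS9A, all of them called. RPS12 had a difference of −0.13 and was not called. Without the arrays numbered 1, 2 or 3 the number of distinct genes was 25, 7 and 13. Both this comparison and the one with antimycin A use the same galactose arrays, including their control.

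Msn2 and Msn4 are transcription factors that bind stress response elements. In the mutant without them the small-subunit genes still fell in N2, and the fall differed from that of the wild type past the threshold for RPS9A, RPS11A and RPS12. The median change of the 56 genes was −0.87 at 0.04 generations, −1.57 at 0.08, −1.26 at 0.19 and −0.75 at 2 generations, which were the time points measured. The array medians over the genes were 0.61, 0.37 and 0.59 in the control and −1.16, −0.91 and −0.91 at 0.08 generations, and they did not overlap. Of the genes, 47 had their lowest mean at 0.08 generations. Unadjusted p-values under 0.05 with a lower level were found for 49, 54, 55 and 49 genes at the 4 time points. After adjustment 7 genes were called, all lower and all at 0.08 generations, beside 1.37% of all genes called lower there and 6.58% called in either direction at some time point.

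Those called were RPS0A, RPS0B, RPS9A, RPS11A, RPS16B, RPS18B and RPS19A, of which RPS0A, RPS9A and RPS19A are described after their values were seen. RPS19A was at 0.77, 0.47 and 0.63 in the control and at −2.14, −1.64 and −1.68 at 0.08 generations, a change of −2.44 (SE 0.30, adjusted p = 0.00692) and a level 5.44-fold lower. RPS9A went from 0.48, 0.22 and 0.65 to −2.06, −1.99 and −1.58, a change of −2.33 (SE 0.28, adjusted p = 0.00529), or 5.02-fold. RPS0A (YGR214W), whose protein binds the body next to Rps21, changed by −1.95 (SE 0.23, adjusted p = 0.00329). For RPS19A and RPS9A none of the arrays at 0.08 generations overlapped with their controls.

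The count depended on single arrays. It was 23 without replicate 1 at 0.19 generations and 26 without replicate 2 at 2 generations, the arrays that stood apart, and 0 without any one replicate number. All time points of a series share 1 estimate of the spread in this fit.

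At 0.19 generations of the mutant the lowest changes were those of RPS11B (−2.0, adjusted p = 0.034), RPS9A (−1.95, adjusted p = 0.041), RPS4A (−1.92, adjusted p = 0.047) and RPS24B (−1.89, adjusted p = 0.26). The highest were RPS28A (−0.73), RPS30A (−0.65), RPS13 (−0.46) and RPS21B (−0.27). Of the single-copy genes, the changes were −1.86 for RPS12, −1.48 for RPS3, −1.45 for RPS2, −1.36 for RPS15 and −0.79 for both RPS20 and RPS31. RPS13 was again among the members that moved least, with control values of 0.31, 0.33 and 0.10 and values of −0.13, −0.21 and −0.37 at 0.08 generations.

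**Figure D3:**
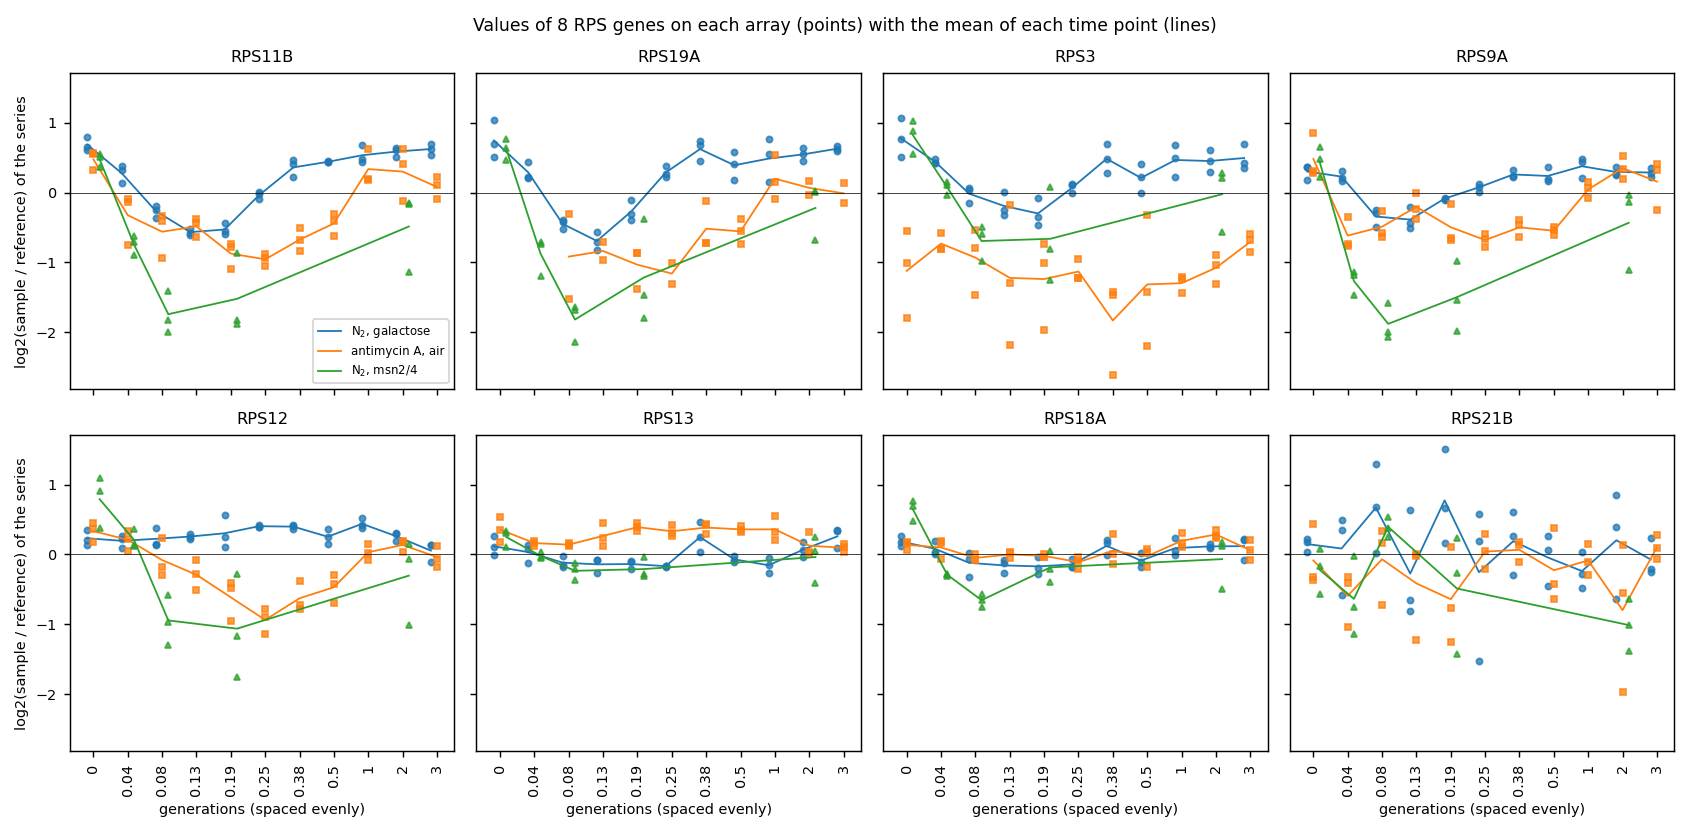
Values of single arrays (points, log2 ratio to the reference) and their means (lines) of RPS11B, RPS19A, RPS3, RPS9A, RPS12, RPS13, RPS18A and RPS21B along anaerobiosis in galactose, antimycin A in air and anaerobiosis of the msn2/4 mutant (generations, horizontal axis). RPS12 stays level in the wild type in N2 and is lower than its control in the other series. RPS13 moves little in the wild-type series and lies below its control in the mutant. The arrays of RPS21B scatter widely.

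The test of mutant against wild type called a more negative change in the mutant for RPS11A and RPS9A at 0.08 generations, beside 1.32% of all genes, and for RPS9A and RPS12 at 0.19 generations, beside 1.89%. At 0.08 generations the difference was −1.24 for RPS11A (adjusted p = 0.00115) and −1.68 for RPS9A (adjusted p = 0.000851). At 0.19 generations it was −1.56 for RPS9A (adjusted p = 0.00377) and −1.93 for RPS12 (adjusted p = 0.00383). Without replicate 1 of the mutant at 0.19 generations the number of distinct genes was 8 instead of 3, and without the arrays numbered 1, 2 or 3 it was 0, 1 and 0, and 6 with a replicate block. The medians over the genes were −0.88 and −0.54, and 45 and 30 genes had a more negative change at an unadjusted p under 0.05. RPS12 was at 1.10, 0.37 and 0.91 in the mutant control, at −0.97, −1.29 and −0.57 at 0.08 generations and at −0.27, −1.75 and −1.16 at 0.19 generations. These anaerobic arrays of RPS12 all lay below their controls, while the wild-type arrays of this gene at 0.13 generations overlapped theirs.

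Return to air after 6 generations of N2 gave a shallow dip and a later rise in galactose medium. The median change of the 55 genes was −0.04 at 6.03 generations, −0.22 at 6.06, −0.28 at 6.1, −0.26 at 6.13 and −0.17 at 6.2. It was 0.07 at 6.3, 0.21 at 6.4, 0.32 at 6.6, 0.33 at 6.8 and 0.16 at 7.6 generations. Over the series 6 of 55 genes were called, beside 27.4% of all genes, with 0 when the arrays numbered 1, 2 or 3 were left out, and 12 with a replicate block. The median of all genes was at −0.08 at 6.1 generations and at 0.04 at 6.6. At 6.1 generations RPS19A, RPS24B and RPS27A had fallen, beside 5.06% of all genes called lower, and at 6.13 generations RPS24B, RPS27A and RPS28A, beside 6.24%. RPS11A and RPS14A rose at 6.6 generations, beside 6.24% of all genes called higher, and RPS14A also at 6.8 generations, beside 6.04%. The shares of the small-subunit genes called at these times were near or below those of all genes, so these counts of called genes do not set them apart. The genes are given as a description after their values were seen. Without adjustment, at p under 0.05, 44 of the 55 genes were lower and 47 higher at some time point of the series. By that measure 39 and 43 were higher at 6.6 and 6.8 generations. At those times 0 of the 55 lay below the control, beside 45.3% and 45.6% of all genes.

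RPS27A was at 0.19, 0.23 and 0.43 before re-aeration and at −0.48, −0.47 and −0.35 at 6.1 generations, a change of −0.71 (adjusted p = 0.00051). RPS24B (YIL069C), a protein gene of the body, went from 0.33, 0.33 and 0.40 to −0.27, −0.23 and −0.20, a change of −0.59 (adjusted p = 1.52e-05). Neither gene had overlapping arrays. RPS19A dipped and rose within this series, from 0.36, 0.40 and 0.36 to −0.29, −0.28 and −0.30 at 6.1 generations (change −0.66, adjusted p = 0.000623) and to 0.78, 0.75 and 0.98 at 6.6 generations. RPS14A (YCR031C), whose protein belongs to the platform, went from −0.25, −0.08 and −0.00 to 0.35, 0.24 and 0.46 at 6.6 generations, a change of 0.46 (adjusted p = 0.00746). RPS11A (YDR025W) went from −0.25, −0.10 and 0.03 to 0.48, 0.41 and 0.31, a change of 0.51 (adjusted p = 0.009). In both, all 3 arrays at 6.6 generations lay above all 3 before re-aeration.

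Among the single-copy genes at 6.1 generations RPS3 was at −0.70 (adjusted p = 0.031), RPS20 at −0.33, RPS15 at −0.32, RPS31 at −0.30, RPS2 at −0.10, RPS13 at −0.06 and RPS12, the highest of all 55, at 0.32. RPS7B was at −0.69 (adjusted p = 0.018). In glucose medium the median at 6.1 generations was −0.16, while that of all genes was −0.10, and limma called 0 genes over the series, beside 21.1% of all genes, with 40 lower and 5 higher at an unadjusted p under 0.05. The lowest changes there were those of RPS9A (−0.51, adjusted p = 0.093), RPS7B (−0.38), and RPS27A and RPS29A (each −0.37), and the highest those of RPS21B (0.05), RPS23B (0.02), RPS24A (−0.04) and RPS4A (−0.06). The difference between both media passed for 0 genes at 6.06 and 6.1 generations, beside 1.33% and 2.32% of all genes in either direction. At an unadjusted p under 0.05 it was positive for 5 genes and negative for 1 at 6.06 generations, and positive for 10 and negative for 1 at 6.1 generations.

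The A and B paralogs mostly followed each other, and differences between them were tested as the A value minus the B value on the same array. In anaerobiosis in galactose 1 of 22 pairs passed, RPS19 at 0.08 generations, which is 4.55% of the pairs. RPS19A was at −0.40, −0.53 and −0.42 and RPS19B (YNL302C) at −0.38, −0.24 and −0.23 at that time, from control values of 0.51, 0.70 and 1.03 and of 0.07, 0.37 and 0.58. The A gene changed by −1.19 and the B gene by −0.62, a difference of −0.57 (SE 0.09, 95% interval −0.76 to −0.38, adjusted p = 0.00711). At 0.13 generations the difference was −0.50 (interval −0.69 to −0.31, adjusted p = 0.0498). In the mutant it was −0.81 at 0.08 generations (adjusted p = 0.92) and in re-aeration in galactose −0.44 at 6.1 generations (adjusted p = 0.66). RPS19A thus fell further than RPS19B at each of the time points named here. The difference passed in anaerobiosis in galactose only, and there not without the arrays numbered 1, 2 or 3. In anaerobiosis in glucose it was 0.03, −0.01 and 0.14 at 4, 5 and 6 generations, so this order was not kept there.

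At 0.13 generations of anaerobiosis in galactose the B gene was lower in 15 of 22 pairs and the A gene in 7. At an unadjusted p under 0.05, 10 pairs had a lower B gene and 2 a lower A gene, and the threshold after adjustment was passed by 0. The largest differences were those of RPS21 (−0.62), RPS28 (0.53), RPS19, RPS7 (0.49) and RPS1 (0.47). RPS21 rests on arrays that did not resemble each other. RPS21B (YJL136C) was at 0.23, 0.04 and 0.18 in the control, at 0.68, 1.30 and 0.03 at 0.08 generations, at −0.81, −0.65 and 0.64 at 0.13 generations and at 0.16, 1.5 and 0.66 at 0.19 generations. The SE of its pair difference at 0.13 generations was 0.49 and the 95% interval ran from −1.62 to 0.38.

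RPS28 differed with less spread. RPS28A (YOR167C) was at 0.20, 0.53 and 0.81 in the control, at −0.41, −0.32 and 0.16 at 0.08 generations and at −0.19, −0.27 and −0.25 at 0.13 generations. RPS28B (YLR264W), whose mRNA is known to be regulated by its own protein, was at 0.45, 0.65 and 0.91, then at −0.82, −0.62 and −0.41, and at −0.59, −0.62 and −0.61. The difference between their changes was 0.59 at 0.08 generations (adjusted p = 0.02) and 0.53 at 0.13 generations (SE 0.10, adjusted p = 0.082). In the mutant it was 0.92 at 0.04 generations (adjusted p = 0.23). Both genes were below their controls on each array of these time points.

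RPS7 (difference 0.49, SE 0.17) and RPS1 (0.47, SE 0.15) had a lower B gene with wider errors. RPS1, which encodes a platform protein, differed by 0.83 in the mutant at 0.08 generations (adjusted p = 0.12). There RPS1A went from 0.58, 0.27 and 0.44 to −0.93, −0.51 and −0.63 and RPS1B from 1.17, 0.67 and 0.89 to −1.36, −0.89 and −0.89. In both genes the anaerobic arrays lay below all control arrays.

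RPS14 and RPS18 were chosen after their values with antimycin A were seen. RPS14A went from 0.25, 0.25 and 0.15 to −0.50, −0.30 and −0.31 at 0.25 generations, and RPS14B (YJL191W), whose splicing is known to be repressed by Rps14, from 0.57, 0.59 and 0.70 to −0.75, −0.56 and −0.69. The difference was 0.70 (95% interval 0.36 to 1.04, adjusted p = 1). RPS18A went from 0.07, 0.18 and 0.17 to −0.20, −0.03 and −0.09, and RPS18B (YML026C) from 0.38, 0.27 and 0.28 to −0.69, −0.42 and −0.28, a difference of 0.52. At 0.19 generations it was 0.61 (adjusted p = 0.14). RPS18A was called in 0 of the 7 series. RPS14B and RPS22A are neighbours in the R64 reference. The smallest differences in anaerobiosis in galactose at 0.13 generations were those of RPS0 (−0.03, interval −0.31 to 0.25), RPS10 (0.03, interval −0.17 to 0.23) and RPS29 (−0.04, interval −0.30 to 0.23), while the median absolute difference over the pairs was 0.33.

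**Figure D4:**
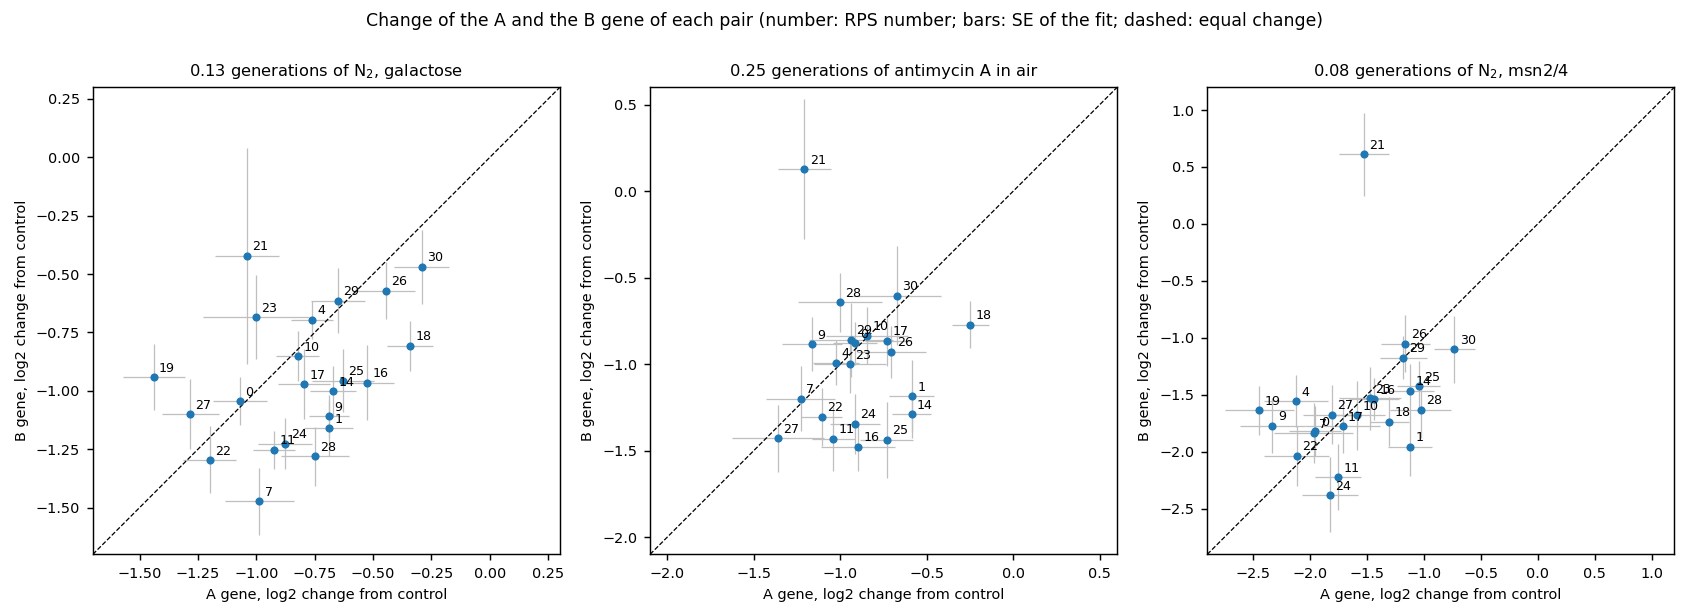
Change of the A gene (horizontal axis) against that of the B gene (vertical axis) of each pair, in log2 with bars of 1 SE, at 0.13 generations of anaerobiosis in galactose, 0.25 generations of antimycin A in air and 0.08 generations of the msn2/4 mutant, with the line of equal change. In the first panel 15 of 22 pairs lie on the side of a lower B gene, and RPS9 lies on opposite sides of the line in the wild type and in the mutant.

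RPS9, also chosen after its values were seen, is a pair whose order differed between series. In the wild type at 0.13 generations of N2, RPS9A was at −0.51, −0.44 and −0.21 and RPS9B (YBR189W) at −0.86, −0.75 and −0.70, from control values of 0.18, 0.37 and 0.36 and of 0.23, 0.29 and 0.51, so that the B gene fell further by 0.42. In the mutant at 0.08 generations RPS9A was at −2.06, −1.99 and −1.58 and RPS9B at −1.44, −1.31 and −1.13, from RPS9B controls of 0.54, 0.45 and 0.45, a difference of −0.56. It was −0.60 at 0.04 generations of antimycin A (adjusted p = 0.36) and −0.45 at 6.1 generations of re-aeration in galactose. The test of the difference of differences between mutant and wild type gave −0.93 at 0.08 generations (adjusted p = 0.0212) and −0.80 at 0.19 generations (adjusted p = 0.231). It passed at 0.01 for 0 of the pairs in any of the 5 comparisons of series, and at an unadjusted p under 0.05 it was found for 4 and 3 pairs between mutant and wild type at the 2 times tested, for 7 and 9 with and without antimycin A, for 7 and 9 between the sugars, for 1 and 1 between antimycin A and N2, and for 1 and 3 between the media in re-aeration.

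Over the 64 time points of the 7 series, the changes of the A and B genes of a pair had a Pearson correlation with a median of 0.915 over 22 pairs. It ranged from 0.0791 for RPS21 to 0.972 for RPS19 (46 time points), with RPS28 at 0.722 and RPS18 at 0.836. The 1516 other pairs of these genes had a median of 0.861. These are descriptions, since the time points of a series share their control arrays and, within an array, the reference and the hybridization. In 3 pairs, RPS26, RPS29 and RPS30, the A gene was more like its own B gene than like any other of the genes. RPS11A was called in 4 of the 7 series, and RPS0A, RPS0B, RPS9A, RPS16B, RPS19A and RPS24B in 3. Another 16 genes were called in 2 series, 18 in 1 and 15 in none, among them both copies of RPS29 and RPS30 and the single copies RPS13 and RPS31. Of these genes 12.5% were called in 3 or more series and 41.1% in 2 or more, against 27.1% and 40.3% of all rows.

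Other genes of the ribosome give the frame for these changes. At 0.13 generations of anaerobiosis in galactose the 81 large-subunit genes had a median of −0.78, with 47 called lower, beside −0.80 and 35 of 56 for the small subunit. ASC1, the homolog of the RACK1 protein that sits on the head, changed by −0.82 and was called. The 16 assembly factors and dedicated chaperones of the small subunit had a median of −1.09, with 10 called lower, and the 10 regulators of ribosomal protein genes had −0.30, with 1 called lower. The 31 genes for the small subunit of the mitochondrial ribosome went the other way, at a median of 0.47 with 7 called higher and 1 lower.

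With antimycin A at 0.25 generations the large-subunit genes were at −0.90 (24 of 81 called lower), the assembly factors at −1.37 (10 of 16), the regulators at −0.39 (0 of 10) and the mitochondrial genes at 0.02 (1 higher). In the mutant at 0.08 generations these medians were −1.49 (5 of 81), −0.94 (3 of 16), −0.68 (2 of 10) and 0.30 (0 of 31). In glucose at 0.13 generations the assembly factors were at 0.41 and the large-subunit genes at 0.03, with 0 of either called. After re-aeration for 0.6 generations the mitochondrial genes were at 0.74 in galactose (13 of 31 called higher) and 0.94 in glucose (15 of 31). Of all genes 6.24% and 6.2% were called higher. The cytosolic small-subunit genes then had a median of 0.32 in galactose and 0.02 in glucose. No test compared these lists with each other.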

How the data were processed

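Per the labels, the authors hybridized Cy3-labelled sample cDNA with Cy5-labelled reference cDNA on 227 arrays, quantified spots with GenePix Pro, corrected the background and normalized in SAS. They deposited 1 value per ORF and array, taken here as log2 of sample over reference. The reference was a pool of time points, or, for the antimycin A series, of anaerobic and aerobic RNA. A change is the mean of a time point minus that of the control of its series, so the reference cancels. Each series had its own linear model in limma 3.58.1 (R 4.3.3), with a mean for each time point, and genes were called at a Holm-adjusted p of at most 0.01 over all genes of the time point, after the study's methods but without their repeated-measures term, with at least 2 values in each group. Differences between series were interaction terms. Paralogs were compared by 24 rows of A minus B values in the same fit, of which 2, with the same values in both copies, were left out. Values of some of the genes are not reported here. Intervals of differences are 95%. Gene names came from a RefSeq table (assembly R64) for 5597 of 5609 rows. The genes, the lists and the rule for named genes (single copies, the 4 lowest and the 4 highest changes of a series, the pairs with the 5 largest and the 3 smallest differences) were chosen with earlier results of these data known. The number of arrays limits the precision. The models were tested on simulated data. Alternatives concerned the adjustment, the centring, quantile normalization, the samples in the fit, the control, a replicate block and the omission of arrays. Sequences, introns and promoter motifs were not analysed here.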

Additional observations from a re-analysis of the deposited data

Results flagged for a closer look

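The comparisons between series gave the results that call for a closer look, each because the test of the difference itself passed the threshold. After 3 generations of antimycin A, 18 small-subunit genes changed less at 0.08 generations of N2 than in N2 without the inhibitor. The count at 0.13 generations was 24. Of all genes, 9.89% and 8.93% passed in this direction. In glucose medium 19 and 32 genes at these times changed less than in galactose, beside 10.6% and 12% of all genes. The control of the former comparison holds the array of replicate 2 that stood apart, and its part in the counts is given by the 14 distinct genes that passed without it. Between the msn2/4 mutant and the wild type 2 genes differed at 0.08 generations, RPS9A (−1.68) and RPS11A (−1.24). At 0.19 generations 2 did, RPS9A (−1.56) and RPS12 (−1.93). Of all genes, 1.32% and 1.89% were called for a more negative change at these times. The count of 3 distinct genes fell to as few as 0 when the arrays of a replicate number were left out. Groups of 3 arrays were too small for a test of single deviating arrays.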

How the results depend on the processing

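Direction under the alternatives was checked only for single genes named at chosen time points of each series, and there no called change reversed. It was not checked for the differences between series, for the pairs or at other time points. The small median change in glucose, 0.06, changed sign under quantile normalization. Benjamini-Hochberg in place of Holm adjustment gave 48 called genes in antimycin A in air, 12 in N2 after antimycin A, 7 in glucose, 53 in the msn2/4 mutant, 45 and 13 in re-aeration in galactose and glucose, 13 pairs, and 45, 51, 26 and 2 differences for antimycin A, the sugars, the mutant and re-aeration. A fit of only the control and 1 time point gave 2 genes in anaerobiosis in galactose, 2 in antimycin A, 20 in the mutant, 0 in re-aeration in galactose and 0 pairs, with fewer samples to estimate the spread. Quantile normalization gave 3 genes in re-aeration in galactose, 0 pairs, and 14, 13 and 1 differences for antimycin A, the sugars and the mutant. It moved the median change to −0.68 in anaerobiosis in galactose, −0.011 in glucose, and −0.23 and −0.10 in re-aeration in galactose and glucose. Median centring gave 0.012 in anaerobiosis in glucose and −0.10 in re-aeration in glucose. With the control before antimycin A, 14 genes were called in N2 after antimycin A. The cause of these shifts was not tested. Shares of all genes called were not computed under any of the alternatives, so these counts cannot be set against genes in general.

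With a replicate block 12 genes were called in re-aeration in galactose, and 11, 6 and 1 differences for antimycin A, the mutant and re-aeration, against 27, 3 and 0 without it. The other counts moved by less, to 41 in anaerobiosis in galactose, 17 in antimycin A, 5 in the mutant and 39 differences between the sugars. The methods describe time courses sampled from separate fermentor runs in triplicate with repeated measures, but the labels do not say that a number marks a run. Deviations of arrays with the same number correlated with a median of 0.0879 to 0.210 over the series and down to −0.485 for single pairs. These values do not decide whether a number marks a run. The counts without a block leave out any such pairing. As a hint from the data, 48.5% to 100% of the arrays of a series correlated best with their own number, with 100% in re-aeration in galactose and 93.9% in re-aeration in glucose.

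Leaving out 1 replicate number at a time gave 8 to 26 genes in anaerobiosis in galactose, 8 to 20 in antimycin A, 0 in the mutant, 0 in re-aeration in galactose, and 0 to 1 pairs. It gave 5 to 22, 7 to 25 and 0 to 1 differences for antimycin A, the sugars and the mutant. Leaving out single arrays that stood apart, a choice made after the data were seen, gave 30 genes in antimycin A, 23 and 26 in the mutant, and 14 and 8 differences for antimycin A and the mutant. The medians ranged from −0.86 to −0.79 in anaerobiosis in galactose at 0.13 generations, −0.66 to −0.56 in antimycin A, 0.029 to 0.21 in N2 after antimycin A, and −1.73 to −1.53 in the mutant at 0.08 generations. The call of RPS9A in the mutant was lost without each number in turn and under quantile normalization, with the direction kept. Of the values of single genes under the remaining alternatives, 607 kept direction and call or moved by less than 1 SD, 37 became called, 23 lost the call and 63 moved by more. The precision is limited by the 3 arrays of a group, with a median SD of 0.177.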
